A study of Rattus norvegicus with 32 samples.

Results

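The neural stem cell niche genes examined here were Nes, Sox2, Tnc, Thbs4, Vcam1, Fabp7, Egfr, Id1 and Hes5. They were found by gene name in the count files, and all 9 of 9 names were present among 28914 genes. Their expression was followed in RNA-seq libraries of 4 brain regions of adult male Sprague-Dawley rats, the nucleus accumbens (NAc), the dentate gyrus (DG), the cornu ammonis (CA) and the subventricular zone (SVZ). Rats received methamphetamine (METH, 10 mg/kg) or saline (Sal) by 4 intraperitoneal injections at intervals of 2 h, and tissue was taken a day after the last injection. Each of the 8 groups (NAc Sal, NAc METH, DG Sal, DG METH, CA Sal, CA METH, SVZ Sal and SVZ METH) had 4 libraries, 32 in all, and no genotype other than the strain was named. The SVZ and NAc were punched from brain slices, and the DG and CA were dissected by hand, so each library held RNA of all the cells in its piece of tissue. No label says that the 4 libraries of a group came from separate rats or which regions share a rat, so p-values measure the spread between these libraries. In such bulk samples fewer cells of a type and less RNA per cell cannot be told apart.

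Neural stem cells of the adult rodent brain lie along the wall of the lateral ventricle (the SVZ) and under the granule cell layer of the DG. They descend from radial glia and share many genes with astrocytes. When they leave quiescence they give rise to dividing transit-amplifying cells and then to migrating neuroblasts. The 9 genes cover several roles in this lineage. Tnc encodes tenascin-C, a matrix glycoprotein of the SVZ, Thbs4 encodes thrombospondin 4, a secreted matrix protein made by SVZ astrocytes, and Vcam1 encodes an adhesion molecule that anchors stem cells in the niche. Nes encodes the intermediate filament protein nestin, and Fabp7 encodes the brain lipid-binding protein of radial glia. Egfr encodes the EGF receptor, which activated stem cells and transit-amplifying cells carry. Sox2 encodes a transcription factor of stem cells that astrocytes also make, Hes5 a repressor downstream of Notch signalling, and Id1 an inhibitor of basic helix-loop-helix factors downstream of BMP signalling.

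Total counts ranged from 11094002 to 21869773 per library. Levels are given in CPM, counts relative to library sizes scaled by the upper quartile. The region labels were only in part matched by marker genes. Genes of striatal medium spiny neurons summed to between 268 and 9064 CPM in the 8 NAc libraries, against 184.5 to 745 CPM in the CA, 177.5 to 2010 CPM in the DG and 240 to 6452 CPM in the SVZ, which borders the striatum. The highest DG sum was that of DG Sal 3, above NAc Sal 2 (1718 CPM) and NAc Sal 4 (1903 CPM), and the other 7 DG libraries reached 470.3 CPM. The summed dentate granule neuron genes overlapped between the DG (37.9 to 449.8 CPM) and the CA (69.4 to 430.7 CPM). Genes of thalamic neurons (Prkcd, Tcf7l2, Slc17a6, Lef1 and Synpo2) summed to 1849 CPM in SVZ Sal 1, 1651 CPM in SVZ METH 2 and 1107 CPM in SVZ METH 4, against 77.4 to 485 CPM in the other 5 SVZ libraries. The file headers give a library number and a sequencing run, except that CA Sal 1 and 2 are headed as merged and name no run. All 8 SVZ libraries carry their own numbers and were taken as a run of their own from the form of their headers. Region and run thus cannot be told apart in any comparison with the SVZ, and the 4 SVZ METH libraries carry 2 library numbers. The headers mark SVZ Sal 1, Sal 2, METH 2 and METH 4 as extra libraries. DG Sal 1 and 2 and DG METH 1 and 2 carry numbers that stand under the other treatment in the NAc and CA. Calls of members that rest on the libraries high in thalamic genes or on the doubtful numbers are given with and without them. The libraries marked extra were not left out as a set.

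All 9 genes lie on 1 chromosome each in the rat build rn6, with no other annotated gene across them. Tnc is at chr5:79789671-79874671 on the minus strand and Thbs4 at chr2:22343727-22385855 on the minus strand. Vcam1 (chr2:219071193-219097619, minus), Nes (chr2:187344056-187352969, plus) and Sox2 (chr2:121165137-121167545, plus) share chromosome 2 with Thbs4. Fabp7 is at chr20:40769586-40773349 on the plus strand, Egfr at chr14:99919485-100098796 on the plus strand, Id1 at chr3:148215540-148216718 on the plus strand and Hes5 at chr5:172364421-172365188 on the plus strand. Reads were counted over exons without regard to strand. Per kilobase of exon, the median level over the 32 libraries was highest for Fabp7 (27.4 CPM per kb), Hes5 (24.8) and Sox2 (24.1), and then came Id1 (7.90), Vcam1 (6.72), Egfr (4.68) and Tnc (3.21). Nes (0.376 CPM per kb, 10 to 87 reads per library) and Thbs4 (0.120 CPM per kb, 0 to 97 reads) were near the lower end of what these libraries measure. The 0 of Thbs4 in DG METH 1 allows up to 3 reads, which is 0.184 CPM in that library.

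The stretch of 250 bases before the transcription start is shown for Tnc, Thbs4, Fabp7 and Sox2, the members with the largest SVZ differences, and for Hes5, a known Notch target, beside them. Sequences are those of RefSeq on the build GRCr8, a later build than the rn6 of the counts, and all 9 members had an entry. The windows are chr5:82476132-82476381 on the minus strand for Tnc, chr2:25760346-25760595 on the minus strand for Thbs4, chr20:37669356-37669605 on the plus strand for Fabp7, chr2:119464881-119465130 on the plus strand for Sox2 and chr5:170804327-170804576 on the plus strand for Hes5. Capitals mark matches on either strand to GTGGGAA (the core bound by RBPJ, the DNA-binding partner of Notch), ATGCAAAT (the octamer of POU factors) or ACAATG (a core bound by SOX factors), and no 2 matches overlapped.
Tnc: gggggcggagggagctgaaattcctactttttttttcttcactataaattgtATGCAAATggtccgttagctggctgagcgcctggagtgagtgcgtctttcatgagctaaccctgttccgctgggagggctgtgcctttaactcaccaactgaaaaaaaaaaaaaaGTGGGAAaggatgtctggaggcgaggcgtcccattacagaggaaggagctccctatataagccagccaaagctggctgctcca
Thbs4: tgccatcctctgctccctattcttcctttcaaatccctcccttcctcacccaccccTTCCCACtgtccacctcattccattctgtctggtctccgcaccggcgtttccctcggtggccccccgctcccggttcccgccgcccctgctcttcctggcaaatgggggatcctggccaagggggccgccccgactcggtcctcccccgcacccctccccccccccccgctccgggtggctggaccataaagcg
Fabp7: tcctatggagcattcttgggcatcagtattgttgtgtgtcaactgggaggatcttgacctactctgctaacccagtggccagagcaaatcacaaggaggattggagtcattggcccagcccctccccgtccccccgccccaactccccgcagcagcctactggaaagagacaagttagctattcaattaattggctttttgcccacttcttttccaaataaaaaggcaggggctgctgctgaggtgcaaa
Sox2: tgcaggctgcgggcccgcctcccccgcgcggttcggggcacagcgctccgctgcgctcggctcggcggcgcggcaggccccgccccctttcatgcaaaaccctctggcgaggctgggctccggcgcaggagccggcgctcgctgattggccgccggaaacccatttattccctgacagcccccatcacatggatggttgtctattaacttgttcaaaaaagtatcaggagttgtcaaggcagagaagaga
Hes5: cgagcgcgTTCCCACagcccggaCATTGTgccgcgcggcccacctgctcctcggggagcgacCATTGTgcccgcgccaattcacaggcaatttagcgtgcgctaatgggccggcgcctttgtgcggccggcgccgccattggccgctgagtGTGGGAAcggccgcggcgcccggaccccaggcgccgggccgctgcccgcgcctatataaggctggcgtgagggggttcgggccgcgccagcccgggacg
Tnc held 1 match to GTGGGAA and 1 to the octamer, Thbs4 held 1 match to GTGGGAA, and Hes5 held 2 matches to GTGGGAA and 2 to ACAATG. The windows of Fabp7 and Sox2 held none of these letters. Of all 33469 rat windows of this length, 5.27% held GTGGGAA, 1.56% the octamer and 11.1% ACAATG. A match is a run of letters and not a measured binding site.

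The comparison of regions asked where each niche gene was most abundant in rats that had received saline. Tnc was the member that set the SVZ apart: it was expressed at 60.2, 49.3, 36.4 and 45.8 CPM in the 4 SVZ Sal libraries. In the other regions it ranged from 14.6 to 23.9 CPM in the NAc, from 14.15 to 22.8 CPM in the DG and from 18.6 to 22.1 CPM in the CA. No saline library of another region reached the lowest SVZ value. Fitted by edgeR's quasi-likelihood test, Tnc was 2.46-fold higher in the SVZ than in the mean of the other 3 regions (log2 1.30 ± 0.14 SE, adjusted p = 0.0020), and it had the lowest p of the 15515 genes tested. For regions, a call needed an adjusted p below 0.01 together with more than a 2-fold difference. Tnc was the 1 member of 9 called, beside 0.0645% of all genes tested and 0.058% called in the higher direction. It was also the 1 member whose SVZ values did not overlap with those of the other regions, beside 1.13% of all genes with the SVZ above.

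Fabp7 and Sox2 had their highest means in the SVZ without passing. Fabp7 was at 28.3, 38.0, 26.9 and 38.7 CPM in SVZ Sal, overlapping the CA (19.0 to 41.15 CPM) but above all DG (17.0 to 22.9 CPM) and NAc (9.38 to 17.4 CPM) libraries. Its SVZ difference was 0.73 ± 0.19 (log2, SE) with an adjusted p of 0.042. Sox2 was at 64.0, 76.9, 66.8 and 111 CPM in SVZ Sal and at 41.9 to 83.9 CPM in the other saline libraries, with a difference of 0.61 ± 0.17 (adjusted p = 0.059). The highest of those other libraries was DG Sal 3, and without it the NAc, DG and CA libraries reached 67.5 CPM. Id1 (0.55 ± 0.22, adjusted p = 0.14) and Nes (0.41 ± 0.20, adjusted p = 0.21) lay on the same side with wide overlap. The log2 differences of Thbs4 (0.92 ± 0.62), Hes5 (0.20 ± 0.31), Egfr (0.03 ± 0.19) and Vcam1 (0.01 ± 0.14) were less than 2 SE. At an unadjusted p under 0.05, 4 of 9 members (Tnc, Fabp7, Sox2 and Id1) differed, each with the SVZ above, beside 25.4% of all genes in either direction. The median of the 9 log2 differences was 0.55, and that of all genes was 0.05.

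Between pairs of regions in saline rats, Tnc was lower in the CA than in the SVZ (log2 -1.22 ± 0.19, adjusted p = 0.0071), 1 of 9 members beside 0.812% of genes called. It was also lower in the DG (log2 -1.42 ± 0.19, adjusted p = 0.0099), again 1 of 9 members, beside 0.0193% of genes. In the NAc against the SVZ its log2 difference of -1.25 ± 0.19 had an adjusted p of 0.0235, and 0 of 9 members and 0.0% of genes were called there. The pairs among the NAc, DG and CA called 0 members, beside 0.0% of genes for the NAc with the DG or CA and for the DG with the CA. Next to each other in the order of Tnc means, the CA and NAc differed by 0.03 ± 0.19 and the NAc and DG by 0.18 ± 0.19 (log2). The call against the DG rested on a narrow margin, since it was lost when any of 15 of the 16 saline libraries was left out, and the call against the CA was lost without any of 8 of them. With the replicate number as a block both were lost, with adjusted p values of 0.043 for the DG and 0.014 for the CA. For Fabp7 the order of means was SVZ (33.0 ± 6.23 CPM, SD, n = 4), CA (27.4 ± 10.1), DG (20.8 ± 2.81) and NAc (13.6 ± 3.46), and no neighbouring pair passed. Fabp7 was lowest in the NAc, where the log2 difference from the mean of the other regions was -0.96 ± 0.21 (adjusted p = 0.20, 0.0% of genes called). In the comparisons of the DG and CA with the other regions 0 of 9 members were called, beside 0.0% and 0.264% of genes. At an unadjusted p under 0.05, the members on the lower side were Fabp7 and Tnc in the NAc (beside 6.92% of genes), Tnc in the DG (beside 2.06%) and Id1 in the CA (beside 14.6%), and none was on the higher side.

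Vcam1, Egfr and Hes5 had overlapping values in all 4 regions of saline rats. Vcam1 had means of 27.9 ± 1.24 CPM (SD, n = 4) in NAc Sal, 27.3 ± 4.79 in CA Sal, 27.0 ± 5.48 in SVZ Sal and 25.3 ± 5.17 in DG Sal, an order in which no neighbouring pair differed beyond its SE. Egfr was at 21.8 ± 4.83 CPM in CA Sal, 20.2 ± 6.54 in SVZ Sal, 19.96 ± 2.42 in NAc Sal and 17.8 ± 3.10 in DG Sal. Hes5 was at 15.1 ± 4.73 CPM in SVZ Sal, 14.4 ± 2.42 in NAc Sal, 13.5 ± 5.10 in CA Sal and 11.4 ± 6.89 in DG Sal, where single libraries ran from 4.601 to 20.0 CPM. For all 3 genes the range of the 4 libraries within each region was wider than the distance between the highest and lowest region mean. The means of Id1 came in the order SVZ (9.78 ± 1.91 CPM), DG (8.33 ± 2.82), NAc (6.82 ± 2.57) and CA (5.30 ± 1.23), and its log2 difference between the CA and the SVZ was -0.89 ± 0.28 (adjusted p = 0.048). Nes was low everywhere, with means of 2.69 ± 0.671 CPM in SVZ Sal, 2.21 ± 0.290 in NAc Sal, 2.12 ± 0.356 in DG Sal and 1.76 ± 0.537 in CA Sal. Thbs4 was lower still, at 0.914 to 1.57 CPM in SVZ Sal and at 0.133 to 0.997 CPM in the other saline libraries except DG Sal 4 (3.45 CPM). Of these 6 genes, 0 were called between any pair of regions in saline rats.

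**Figure D1:**
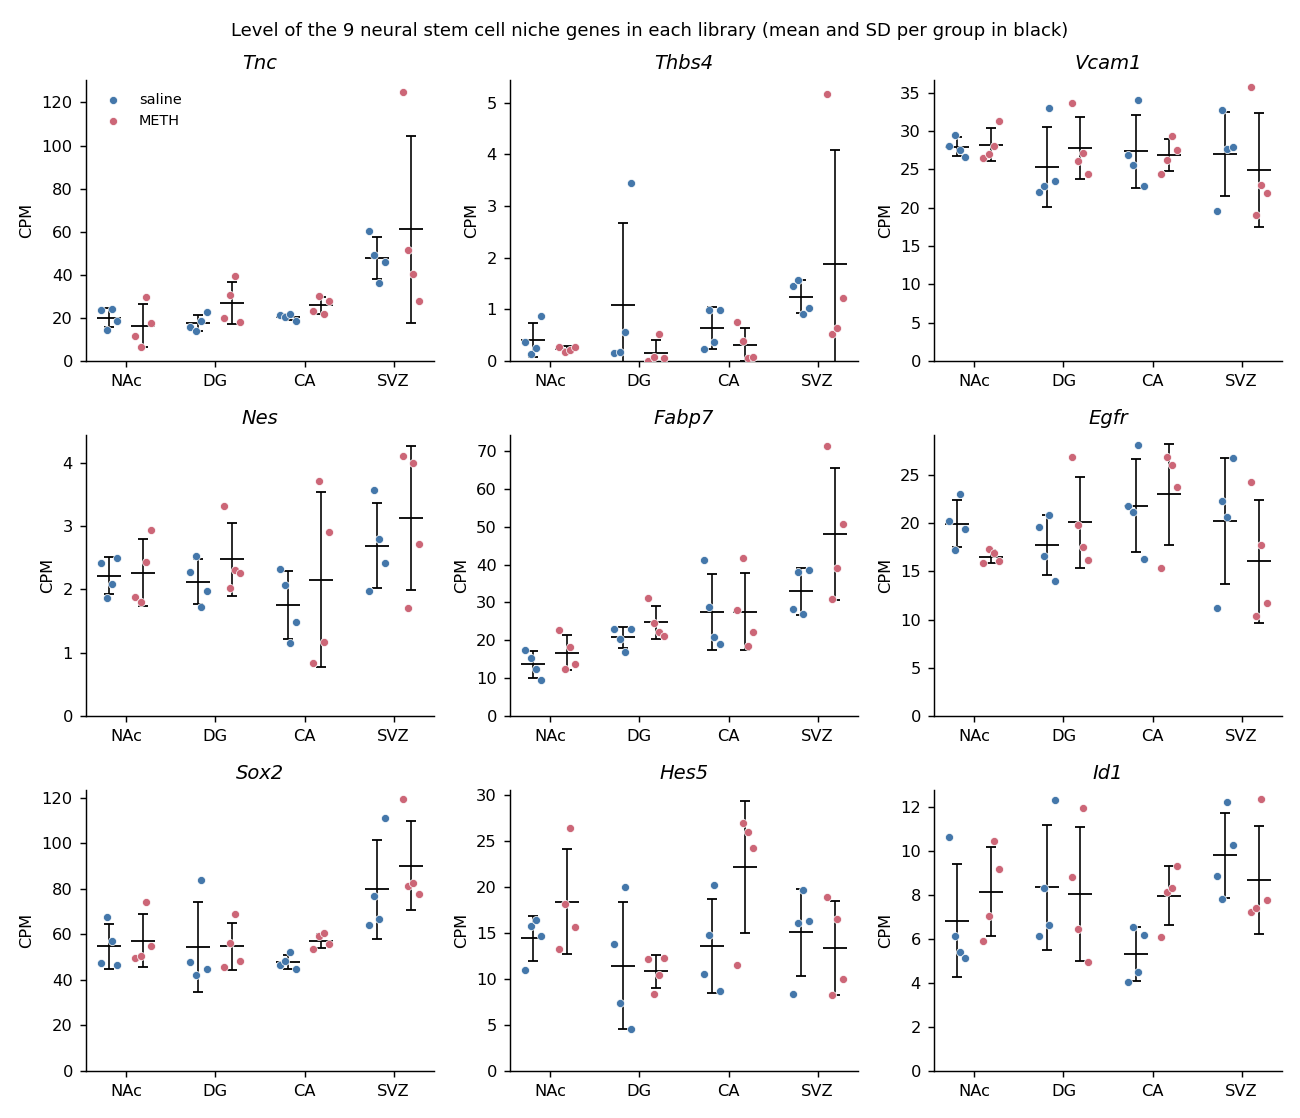
CPM (linear axis from 0) of the 9 niche genes in each of the 32 libraries, by region and treatment, with the group mean and SD (n = 4) in black; SD bars that would pass below 0 are cut at the axis. All 4 SVZ Sal values of Tnc, 36.4 to 60.2 CPM, sit above the other saline libraries, and SVZ METH 1 is the highest point for Tnc, Thbs4, Fabp7 and Sox2.

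The same contrast was run in the 16 METH libraries, which the saline fit did not use. Fabp7 and Tnc passed there, and Thbs4 did so on few reads. These were 3 of 9 members, beside 3.51% of all genes and 2.02% in the higher direction. Tnc was 2.71-fold higher in the SVZ (1.44 ± 0.35 on the log2 scale, adjusted p = 0.0093) and Fabp7 2.14-fold (1.10 ± 0.22, adjusted p = 0.0037). Thbs4 had 97, 10, 14 and 26 reads in SVZ METH 1 to 4 and 0 to 11 reads in the other 12 METH libraries. It thus entered the test through the SVZ libraries. Its call (adjusted p = 0.0060 by edgeR) rests on these few reads and is not taken as support for an SVZ difference. Sox2 had a log2 difference of 0.68 ± 0.13 with an adjusted p of 0.0032, below the fold limit, and its SVZ values (77.7 to 119 CPM) lay above all 12 other METH libraries (45.65 to 74.4 CPM), beside 1.97% of all genes with the SVZ above. With Sox2, 4 of 9 members were higher at an unadjusted p under 0.05, beside 23.5% of genes. Nes (0.45 ± 0.32), Id1 (0.11 ± 0.22), Vcam1 (-0.14 ± 0.13), Hes5 (-0.29 ± 0.25) and Egfr (-0.29 ± 0.20) did not pass. The median over the 9 members, Thbs4 included, was 0.45, and that over all genes 0.05. In the NAc, DG and CA contrasts of the METH libraries 0 of 9 members were called, beside 1.17%, 1.61% and 0.359% of genes. At an unadjusted p under 0.05, Fabp7 and Tnc were on the lower side in the NAc (beside 9.2% of genes) and Hes5 in the DG (beside 12.9%), while Hes5 was on the higher side in the CA (beside 10.9%). The lowest p in those 3 contrasts was that of Fabp7 in the NAc (log2 -0.93 ± 0.25, adjusted p = 0.033), where its values were 22.7, 12.4, 18.3 and 13.6 CPM.

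The count of members called in the SVZ of METH libraries was not stable. When single METH libraries were left out it was 0 without SVZ METH 1 or SVZ METH 4, 1 without NAc METH 1, 2 or 4, DG METH 2 or 4 or CA METH 2, 3 or 4, and 2 or 3 without any of the other 6. With the replicate number as a block Fabp7 alone was called, and Tnc (1.39, adjusted p = 0.025) and Thbs4 (adjusted p = 0.016) were not. SVZ METH 1 was the library with the highest values. Tnc was at 125 CPM in that library and at 51.6, 40.5 and 27.95 CPM in SVZ METH 2, 3 and 4. Thbs4 was at 5.16 CPM in SVZ METH 1 and at 0.517, 0.643 and 1.22 CPM in the others, while Fabp7 was at 71.3 against 31.1, 39.1 and 50.7 CPM. Without SVZ METH 1 none of the 9 members was called: Tnc was at 0.82 (adjusted p = 0.063), Thbs4 at 1.73 (adjusted p = 0.047) and Fabp7 at 0.84 (adjusted p = 0.011), all log2 differences, and Sox2 had 0.51 with an adjusted p of 0.0079. None was called without SVZ METH 2 and 4 together, the METH libraries high in thalamic genes, where the differences were larger (Tnc 1.87, Thbs4 3.58 and Fabp7 1.29) but the adjusted p values were 0.014, 0.011 and 0.013. With the 4 SVZ METH libraries summed to 2 by library number, 0 members passed and the differences of Tnc (1.41), Thbs4 (2.93) and Fabp7 (1.07) stayed close, with adjusted p values of 0.031, 0.013 and 0.014. Without DG METH 1 and 2 none of the 9 was called either (Tnc 1.40, Thbs4 2.715 and Fabp7 1.155). The saline difference of Tnc was 1.17 (adjusted p = 0.0034) without SVZ Sal 1, and it was called in all 16 fits that left out 1 saline library. It was 1.23 with an adjusted p of 0.012 when DG Sal 1 and 2 were left out together.

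**Figure D2:**
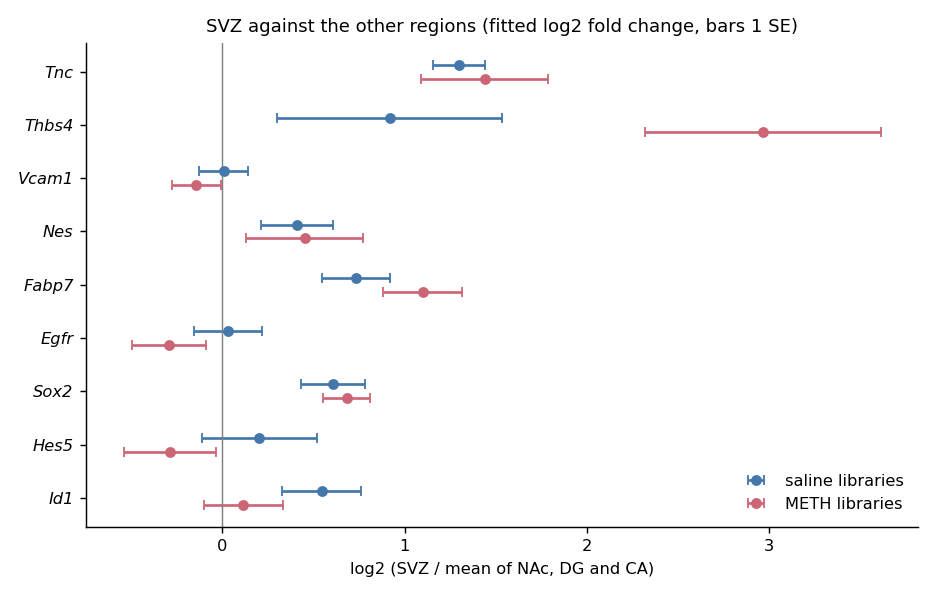
Fitted log2 fold change (horizontal axis) of each niche gene in the SVZ against the mean of the NAc, DG and CA, for saline libraries (blue) and METH libraries (red), with bars of 1 SE. Tnc stood at 1.30 in saline and 1.44 in METH libraries, and Vcam1 and Egfr lay near 0 in saline libraries (0.01 and 0.03).

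The 8 SVZ libraries differed among themselves, and markers of other cell types moved with the niche genes. Genes of transit-amplifying cells and neuroblasts (Dcx, Sox11, Cd24, Dlx1, Dlx2, Dlx5, Igfbpl1 and Sp8) summed to 455.4 CPM in SVZ METH 1, 308.5 CPM in SVZ Sal 2 and 281 CPM in SVZ Sal 4. They summed to 69.9, 61.95 and 85.7 CPM in SVZ Sal 1, METH 2 and METH 4, the libraries with high thalamic sums, and to 101.2 to 231.8 CPM in all libraries of the NAc, DG and CA. Proliferation genes (Mki67, Top2a, Cdk1, Ccnb1, Birc5, Cenpf, Pcna and Mcm2) summed to 215 CPM in SVZ METH 1, 108.5 CPM in SVZ Sal 2 and 102 CPM in SVZ Sal 4, against 29.9 to 62.8 CPM in the other 29 libraries. SVZ METH 1, with the highest sum of both lists, was also the library with the highest Tnc, Thbs4, Fabp7, Sox2, Nes and Vcam1. Sox2 was the next highest in SVZ Sal 4 (111 CPM), where ependymal genes summed to 328 CPM, the highest of all libraries. In the 3 SVZ libraries with low neuroblast sums Tnc varied. It was at 60.2 CPM in SVZ Sal 1, the second highest value, at 51.6 CPM in SVZ METH 2 and at 27.95 CPM in SVZ METH 4, the lowest SVZ value. Hes5 and Egfr were lowest among SVZ libraries in Sal 1, METH 2 and METH 4, at 8.39, 8.21 and 9.94 CPM for Hes5 and 11.2, 10.4 and 11.7 CPM for Egfr. Vcam1 was lowest in these libraries too, at 19.6, 19.0 and 21.95 CPM. Oligodendrocyte genes were highest in the same 3 libraries (18910, 26040 and 27720 CPM). The part of these cell types in the SVZ results was not tested.

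**Figure D3:**
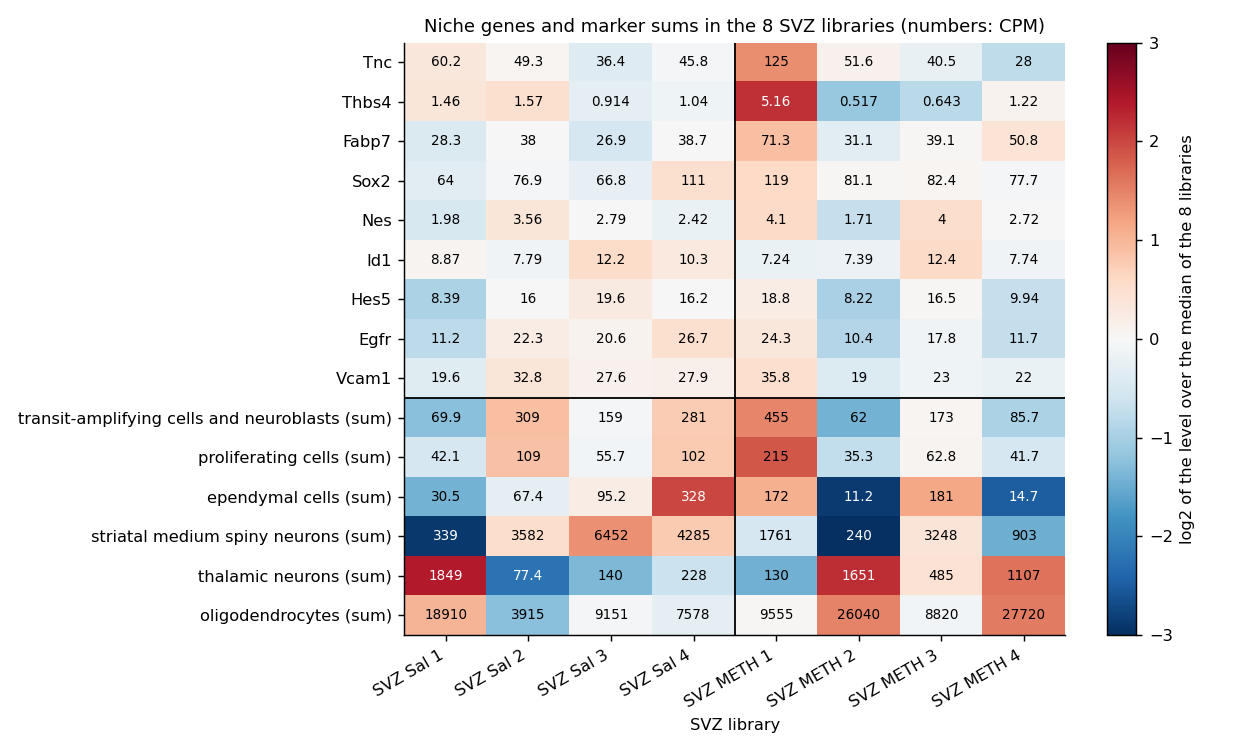
Level of the 9 niche genes and summed level of 6 marker lists in the 8 SVZ libraries, with CPM printed in each cell and colour giving log2 of the level over the median of the 8 libraries. SVZ METH 1 is high for Tnc (125 CPM), Thbs4 (5.16 CPM) and the proliferation sum (215 CPM), while SVZ Sal 1, METH 2 and METH 4 share high thalamic and oligodendrocyte sums and low Hes5, Egfr and Vcam1.

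The 2 lists of SVZ progeny were tested in the same fits. In saline libraries 0 of 8 neuroblast genes and 0 of 8 proliferation genes passed in the SVZ against the other regions, with medians of 1.01 and 0.95 (log2) beside 0.05 for all genes. Sp8, a transcription factor of interneuron precursors, had the lowest p of its list in saline (2.96 ± 0.57, adjusted p = 0.019), and Mcm2, a replication licensing factor, that of the other (0.77 ± 0.15, adjusted p = 0.0197). In METH libraries 2 of 8 and 2 of the 7 tested passed, with medians of 0.96 and 0.80. These were Sp8 (2.85 ± 0.61, adjusted p = 0.0054) and Dlx2 (1.904 ± 0.45, adjusted p = 0.0085), with Cenpf (3.29 ± 0.64, adjusted p = 0.0034) and Top2a (3.51 ± 0.72, adjusted p = 0.0043) from the proliferation list. In SVZ METH 1 to 4 the neuroblast sums were 455.4, 61.95, 172.9 and 85.74 CPM. The proliferation sums were 215, 35.29, 62.75 and 41.65 CPM. Whether these calls hold without SVZ METH 1 was not tested. Astrocyte genes, which share Slc1a3 with the radial glia list, had medians of 0.03 and -0.04 in the saline and METH contrasts, and 0 of 8 passed in either. Their summed level ranged from 3332 to 3981 CPM in the SVZ and from 2845 to 5246 CPM in the other regions. Ependymal genes lay on the SVZ side for 5 of the 5 tested of 6 in both contrasts, with medians of 1.67 and 2.13 and 0 called. Striatal medium spiny neuron genes did so for 8 of 8, with medians of 2.13 and 1.5 and 0 called. Choroid plexus genes had medians of -0.31 in saline and 3.12 in METH libraries, where 7 of 7 lay on the SVZ side, and 0 were called. Their sum was 8373 CPM in SVZ METH 3 and 9.53, 115.8 and 21.6 CPM in SVZ METH 1, 2 and 4, and it was 6269 CPM in DG METH 3. Of the thalamic genes 1 of 5 passed in saline and 4 of 5 in METH libraries, led by Prkcd (3.91 ± 0.57, adjusted p = 0.0073, and 4.33 ± 0.47, adjusted p = 0.00037), and of the oligodendrocyte genes, with medians of 0.55 and 1.5, 1 of 6 passed in METH libraries, Mog (1.46 ± 0.35, adjusted p = 0.0092).

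Genes of the pathways around the members were examined in the same contrast. Of 17 Notch and Hes pathway genes tested, 0 passed in the SVZ in saline or METH libraries, with medians of 0.03 and -0.05 (log2) beside 0.05 for all genes in both. Hes1, a Notch target like Hes5, had the lowest p in saline (-0.61 ± 0.21, adjusted p = 0.094). In the CA of saline rats the log2 difference of Hes1 was 1.15 ± 0.19 (adjusted p = 0.0095) and that of Hes5 was 0.00 ± 0.32. The Hes1 call did not hold, since 0 genes were called in that contrast with the replicate number as a block or with the other 3 regions pooled. Of 18 BMP and Id pathway genes tested of 19, 0 passed in saline and 1 in METH libraries, the ligand gene Bmp4 (1.03 ± 0.23, adjusted p = 0.0069), with medians of 0.23 and 0.10. Id4 had the lowest p in saline (1.07 ± 0.19, adjusted p = 0.015). Of the EGF receptor ligands and partners, 9 of 12 were tested in saline and 10 in METH libraries, with medians of 0.27 and 0.22 and 0 called in the SVZ. Tgfa, which encodes a ligand of the EGF receptor, was at 0.67 ± 0.29 in saline (adjusted p = 0.17) and at 0.91 ± 0.20 in METH libraries (adjusted p = 0.0067, a fold change below the limit). Among other radial glia and stem cell genes 0 of 14 tested passed in either, with medians of 0.215 and 0.26. Vim, which encodes vimentin, led in saline (1.17 ± 0.36, adjusted p = 0.069). Of 17 niche matrix and adhesion genes 16 were tested and 0 passed in saline, with list medians of -0.03 in saline and -0.05 in METH libraries. Itga4, an integrin subunit that binds VCAM1, was lower in the SVZ in METH libraries (-1.99 ± 0.46, adjusted p = 0.0077 by edgeR). Whether the Bmp4 and Itga4 calls hold without SVZ METH 1 was not tested.

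The comparison of METH with saline in each region asked whether niche genes responded to the drug. Here a call needed an adjusted p below 0.01 together with more than a 1.5-fold difference. No member was called in any region, and neither was any gene by edgeR, 0 of 14771 genes in the NAc, 0 of 14800 in the DG, 0 of 14612 in the CA and 0 of 15579 in the SVZ (0.0% each). Thbs4 had too few reads to be tested in the NAc, DG and CA, so 8 members were tested there and 9 in the SVZ. At an unadjusted p under 0.05, 1 member was lower in the NAc (beside 3.39% of genes in either direction and 0.968% lower) and 3 were higher in the CA (beside 7.16% and 4.37% higher). None reached it in the DG (12.8%) or the SVZ (2.58%). DESeq2 called 3 genes in the NAc, 183 in the DG, 10 in the CA and 2 in the SVZ, with 0 members among them.

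The 3 in the CA were Sox2, Id1 and Tnc. Sox2 was at 46.7, 48.3, 52.1 and 44.8 CPM in CA Sal and at 53.4, 59.1, 60.4 and 55.8 CPM in CA METH, so the groups did not overlap, beside 2.57% of genes with METH above saline. The log2 fold change was 0.25 ± 0.08 (adjusted p = 0.67 by edgeR). Id1 was at 4.03, 6.52, 4.49 and 6.17 CPM in CA Sal and at 6.10, 8.12, 8.28 and 9.29 CPM in CA METH, a log2 fold change of 0.59 ± 0.20 (adjusted p = 0.67 by edgeR), with the lowest METH library inside the saline range. Tnc, at 20.6 ± 1.49 CPM (SD, n = 4) in saline and 25.8 ± 3.96 CPM in METH, had 0.32 ± 0.12 (adjusted p = 0.67 by edgeR). Hes5 had the largest fold change of the 4 (0.71 ± 0.32, adjusted p = 0.705 by edgeR), as 3 of the 4 METH libraries (26.95, 25.9 and 24.2 CPM) exceeded all saline libraries (8.72 to 20.2 CPM) and CA METH 1 (11.5 CPM) did not. With the sequencing run as a covariate the CA values were 0.24 for Sox2, 0.58 for Id1, 0.34 for Tnc and 0.69 for Hes5. The merged CA Sal 1 and 2 shared no run with METH libraries, so these values rest on CA Sal 3 and 4 and the METH libraries. Astrocytes also express Sox2, and their marker genes were 8 of 8 on the higher side in the CA with a median of 0.11 and 0 called, beside 0.01 for all genes. Endothelial genes, another cell type that expresses Id1, had a median of 0.39 with 6 of the 6 tested of 8 on the higher side and 0 called. Their part in the CA values was not tested.

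In the NAc, Egfr was at 20.2, 17.2, 23.1 and 19.4 CPM in saline and at 15.9, 17.3, 16.9 and 16.1 CPM in METH libraries, where the highest METH value just passed the lowest saline value. Its log2 fold change was -0.26 ± 0.11 (adjusted p = 0.999 by edgeR). The other 7 members tested in the NAc lay between -0.27 (Tnc) and 0.37 (Hes5), and these values moved with the setting. With the sequencing run as a covariate Tnc was at -1.21 and Hes5 at 0.031. The run shared by both treatments held NAc Sal 3 and 4 and NAc METH 1 and 2, so these values rest on those libraries. With RNA integrity as a covariate Tnc was at 0.048 and Hes5 at 0.67, and 0 members were called with either covariate. NAc Sal 1 and METH 3 were far apart in striatal neuron genes (9064 and 268 CPM), and Tnc was highest in NAc METH 3 (29.8 CPM) and lowest in NAc METH 2 (6.62 CPM). In the DG, Tnc was at 15.7, 14.2, 18.7 and 22.8 CPM in saline and at 20.1, 30.5, 39.4 and 18.3 CPM in METH libraries (0.60 ± 0.27, adjusted p = 0.40 by edgeR), and the other 7 members lay between -0.08 (Hes5) and 0.25 (Fabp7). With the run as a covariate Hes5 was at -0.97 and Fabp7 at 0.70 in the DG. The run shared by both treatments held DG Sal 3 and DG METH 1 and 2, so these values rest on those libraries. Leaving out the 4 DG libraries with crossed numbers gave Tnc 0.48 in the DG and called 0 members. In the SVZ, Fabp7 had the lowest p (0.55 ± 0.26, adjusted p = 0.98 by edgeR), and the other 8 members lay between -0.33 (Egfr) and 0.59 (Thbs4). Over the alternatives beyond single libraries, which include leaving out the libraries high in thalamic genes, Thbs4 ran from 0.019 to 1.296 and Tnc from 0.144 to 0.915.

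**Figure D4:**
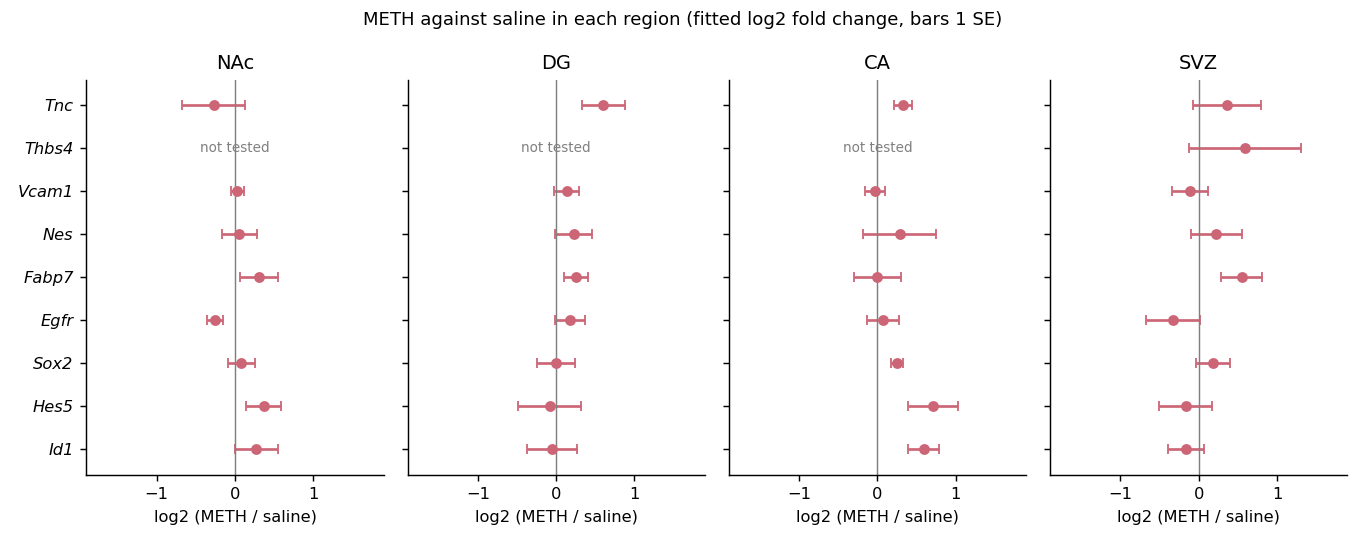
Fitted log2 fold change of METH against saline (horizontal axis) for the niche genes in the NAc, DG, CA and SVZ, with bars of 1 SE and "not tested" where Thbs4 had too few reads. The values that reached an unadjusted p under 0.05 are Egfr in the NAc (-0.26) and Sox2 (0.25), Id1 (0.59) and Tnc (0.32) in the CA, and none passed after adjustment.

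Averaged over the 4 regions with equal weight in a fit of all 32 libraries, Fabp7 had a METH effect of 0.27 ± 0.14 (log2, SE, adjusted p = 0.65 by edgeR). Thbs4 had 0 to 13 reads outside the SVZ except in DG Sal 4, so its fitted mean effect is not given. The other 7 members lay between -0.09 (Egfr) and 0.25 (Tnc). None of the 9 was called, beside 0.0% of 16122 genes, and 0 reached an unadjusted p under 0.05, beside 7.83%. The joint test for a difference of the METH effect between regions called 0 members, beside 0.0% of genes, and 0 reached an unadjusted p under 0.05, beside 7.74%. Thbs4 had the lowest p in it (adjusted p = 0.79 by edgeR), with means of 0.163 ± 0.238 CPM (SD, n = 4) in DG METH and 1.09 ± 1.59 CPM in DG Sal. In the SVZ they were 1.89 ± 2.21 CPM in METH and 1.25 ± 0.318 CPM in saline libraries. In each of these regions 1 library carried the higher mean. DG Sal 4 was at 3.45 CPM of Thbs4, or 42 reads, while the other DG Sal libraries were at 0.157, 0.175 and 0.571 CPM, and SVZ METH 1 was at 5.16 CPM. Choroid plexus genes summed to 2113 CPM in DG Sal 4, to 9.53 CPM in SVZ METH 1 and to 8373 CPM, the highest of all libraries, in SVZ METH 3, where Thbs4 was at 0.643 CPM.

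The pathway and marker lists also gave 0 calls for METH in all 4 regions and in their mean. In the CA, medians were 0.18 for the Notch and Hes genes, 0.06 for the BMP and Id genes, 0.08 for the EGF receptor ligands and partners, 0.21 for other radial glia and stem cell genes and 0.08 for matrix and adhesion genes, beside 0.01 for all genes. Id4, an Id family member of astrocytes and stem cells, had the lowest p in its list in the CA (0.60 ± 0.11, adjusted p = 0.48 by edgeR), and Jag2, a Notch ligand, in its own (0.47 ± 0.17, adjusted p = 0.67 by edgeR). In the DG, Hes1 had 0.88 ± 0.25 (adjusted p = 0.24 by edgeR), while Hes5 had -0.08 ± 0.41. In the NAc the radial glia list had a median of 0.25, beside 0.03 for all genes, and Gfap, the intermediate filament gene of astrocytes and adult stem cells, had the lowest p in it (1.58 ± 0.32, adjusted p = 0.9995 by edgeR). Gfap also led that list in the mean over the regions (0.86 ± 0.16, adjusted p = 0.14 by edgeR). In the SVZ the Notch and Hes genes had a median of -0.10 and the BMP and Id genes one of -0.06, beside 0.02 for all genes.

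The genes whose level most resembled that of a member over the 32 libraries were found by Pearson's r of log2(CPM + 1), as a description without a test, since the libraries share regions, treatments and depth. Tnc was most like Sfrp2 (r = 0.79), a secreted inhibitor of Wnt signalling, and Dll3 (0.785), a gene of the Notch ligand family. The level of Dll3 was low, with region medians from 0.21 CPM in the NAc to 0.789 CPM in the SVZ. Thbs4 was most like Blm (0.80), a DNA helicase, and Hmgb2 (0.79), a chromatin protein of dividing cells. Thbs4 had 0 to 97 reads, and its highest levels were in SVZ METH 1 (5.16 CPM) and DG Sal 4 (3.45 CPM). The proliferation sum was also highest in SVZ METH 1 (215 CPM), so the likeness rests largely on few libraries. Sox2 was closest to Zfp41 (0.90) and Ttll9 (0.89), and Fabp7 to AABR07035218.1 (0.83) and Mphosph10 (0.80). For Vcam1 the closest were Adgrg1 (0.82) and Zswim2 (0.79), for Egfr Kcng1 (0.88) and Ston2 (0.86), for Hes5 Entpd6 (0.86) and Ptprf (0.84), for Id1 Cavin1 (0.80) and Ahnak (0.775), and for Nes, the least closely matched, Wnt5b (0.66). Among the members themselves, Tnc was most like Sox2 (0.72), Fabp7 (0.665) and Thbs4 (0.60), and Vcam1 was most like Egfr (0.73) and Hes5 (0.57). Tnc and Vcam1 had an r of 0.02, and Sox2 and Egfr one of 0.05.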

How the data were processed

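RNA-seq was analysed in 32 libraries of rat brain, 4 in each of 8 groups given by the labels. The authors trimmed reads with cutadapt 2.7, aligned them with STAR 2.5.2b to rn6 and deposited raw counts per gene, made per the file headers with featureCounts 1.6.3 without regard to strand, at a mapping quality of at least 10 and with Ensembl release 95 models (the methods name a UCSC annotation). A count matrix of the series was not used.

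The tests used edgeR 4.0.16 under R 4.3.3, with upper-quartile normalization, filterByExpr, the quasi-likelihood test and Benjamini-Hochberg adjustment over all genes tested. SE is the log2 fold change over the square root of F. Tables used Python 3.11.15, and the test was checked on simulated data. The simulation gave all genes the same spread and placed large changes in well-counted genes only. It therefore does not show the power for small changes or for genes of few reads. The methods also used RUVr with no stated number of factors, so it was an alternative (2 factors), as were TMM, DESeq2 1.42.0, no filter, an FDR of 0.05, the replicate number as a block, the run, pooled other regions and leaving out each library. RNA integrity (from the study's sample sheet) as a covariate, summed SVZ METH libraries and leaving out doubtful DG or SVZ libraries were added after seeing the data. Library numbers recur between the NAc and CA and in part the DG. Deviations of libraries with 1 number correlated at 0.12 to 0.24 between NAc and CA in saline (all 4 pairs above 0.1) and at -0.11 to 0.23 in METH libraries. The fits treat regions as independent, and the replicate block, which pairs the NAc with the CA by these numbers, stands beside the calls it changed. From each list, up to 3 called genes or the gene with the lowest p were named, and for each member the 2 genes with the highest r. Some genes are not reported here and were left out of the lists. The members and lists were chosen with earlier results of these data known.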

Additional observations from a re-analysis of the deposited data

Results flagged for a closer look

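Of 72 groups of 4 libraries (9 genes in 8 groups), 7 held a library that stood apart from the other 3 by Dixon's criterion, and chance gives about 1 in 20. SVZ METH 1 stood apart for Sox2 (119.4 CPM) and for Thbs4 (5.162 CPM), and SVZ METH 3 for Id1 (12.36 CPM). DG Sal 3 stood apart for Sox2 (83.88 CPM) and Vcam1 (33.02 CPM). In it the striatal medium spiny neuron genes summed to 2010 CPM (241 to 338 CPM in the other DG Sal libraries), the ependymal genes to 123 CPM (15.5 to 34.7 CPM) and the neuroblast genes to 232 CPM (124 to 144 CPM). For Thbs4, DG Sal 4 (3.45 CPM) and DG METH 3 (0.5163 CPM) stood apart in their groups, and the choroid plexus genes summed to 2113 and 6269 CPM in these libraries. That sum was highest in SVZ METH 3 (8373 CPM), where Thbs4 was at 0.643 CPM. The part of these libraries' tissue content in the values was not tested.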

How the results depend on the processing

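Of the 9 niche genes, 1 was called in the SVZ against the other regions in saline rats. This count was 2 at an FDR under 0.05 with no fold limit. It was 0 without DG Sal 1 and 2, the saline ones of the 4 DG libraries numbered across treatments. In METH libraries, where 3 were called, the count was 1 with the other 3 regions pooled. The count was 0 without DG METH 1 and 2, with the SVZ METH libraries of 1 number summed or without SVZ METH 2 and 4, which were high in thalamic genes. It ranged from 0 to 3 when single libraries were left out. For the NAc against the other regions in METH libraries it was 1 in place of 0 at an FDR under 0.05. Between pairs of saline regions, NAc against CA gave 1 by DESeq2 and 1 at an FDR under 0.05 in place of 0, and NAc against SVZ gave 2 by DESeq2 and 1 at an FDR under 0.05 in place of 0. DG against SVZ gave 0 in place of 1 with TMM, with no filter, without DG Sal 1 and 2 and without SVZ Sal 1. It gave 0 to 1 when single libraries were left out. CA against SVZ gave 3 in place of 1 at an FDR under 0.05, and 0 to 1 when single libraries were left out. METH against saline called 0 members in each region under all alternatives run.

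Within a region, the replicate numbers did not pair saline with METH libraries: the deviations of same-numbered libraries from their group means correlated at -0.27 to 0.28 in the NAc, -0.20 to 0.37 in the DG, -0.27 to 0.40 in the CA and -0.77 to 0.36 in the SVZ. With the replicate number as a block, 1 member was called in the SVZ of METH libraries (Fabp7), and 0 in the SVZ against the DG or CA in saline rats. Genes called with it fell from 126 to 0 for the CA against the SVZ and from 41 to 0 for the CA against the other regions, both in saline rats. The block also moved the log2 effect of METH on Hes5 in the DG to 0.089 and on Fabp7 in the CA to 0.0060. No other count of members changed with it.

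Values near 0 changed sign. Those with the run as a covariate rest on the libraries whose run held both treatments, as named above. In the NAc, the log2 effect of METH was -0.31 for Nes, -0.043 for Sox2 and -0.0055 for Vcam1 with the run as a covariate, 0.048 for Tnc with RNA integrity as a covariate and -0.0020 for Vcam1 with TMM. In the DG, Sox2 was at -0.0027 with no filter, -0.73 with the run, -0.083 with RNA integrity and -0.14 without the 4 DG libraries, Vcam1 at -0.15 with the run and -0.14 without those libraries, Egfr at -0.054 without them, Id1 at 0.20 with the run and Hes5 at 0.13 with 2 RUVr factors. In the CA, Nes was at -0.064 and Vcam1 at 0.012 with RNA integrity, and Fabp7 at 0.00062 with no filter, 0.031 with 2 RUVr factors and 0.40 with the run. In the SVZ, Hes5 was at 0.034 without the 3 libraries high in thalamic genes. The mean METH effect of Vcam1 was -0.0033 with TMM, -0.0070 by DESeq2, -0.0063 with no filter and -0.068 without the 4 DG libraries. For the SVZ against the other regions in saline rats, Vcam1 was at -0.024 with TMM, -0.026 by DESeq2, -0.013 with no filter and -0.045 without DG Sal 1 and 2. Egfr was at -0.0059 with TMM and -0.0074 by DESeq2 in that contrast. In METH libraries, leaving out SVZ METH 2 and 4 gave 0.088 for Vcam1, 0.093 for Egfr and 0.11 for Hes5.

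When single libraries were left out, the METH effect in the CA ranged from -0.043 to 0.22 for Egfr, from -0.27 to 0.27 for Fabp7, from -0.10 to 0.54 for Nes and from -0.10 to 0.10 for Vcam1. In the DG it ranged from -0.34 to 0.34 for Hes5, from -0.31 to 0.21 for Id1 and from -0.13 to 0.29 for Sox2. In the NAc the ranges were -0.10 to 0.14 for Nes, -0.071 to 0.20 for Sox2 and -0.027 to 0.054 for Vcam1, and in the SVZ -0.38 to 0.0053 for Hes5, -0.64 to 0.90 for Thbs4 and -0.26 to 0.59 for Tnc. The mean effect of Vcam1 ranged from -0.054 to 0.041. The SVZ contrast ranged from -0.11 to 0.20 for Id1 in METH libraries, and from -0.14 to 0.23 for Egfr and -0.10 to 0.13 for Vcam1 in saline libraries. Beyond single libraries, 490 of the members' values kept direction and side of the threshold, 22 lost the call, 5 gained it and 35 changed sign. Most of the 490 had no call to lose. The calls were those of Tnc in both SVZ contrasts and against the DG and CA in saline rats, with Thbs4 and Fabp7 in METH libraries. The cause of these changes was not tested.

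Counts over all genes moved more. In METH libraries 548 genes were called in the SVZ contrast, against 905 by DESeq2, 353 with the block, 179 with the other regions pooled and 4161 at an FDR under 0.05. In saline libraries 10 were called in the SVZ (219 by DESeq2, 749 at an FDR under 0.05, 0 without DG Sal 1 and 2) and 41 in the CA (0 to 1116 over the alternatives). For the NAc, DG and CA in METH libraries 183, 251 and 56 were called, with ranges of 0 to 1143, 5 to 1439 and 0 to 822. CA against SVZ in saline rats called 126, from 0 to 2050, and DG against SVZ 3, from 0 to 117. The joint test of the METH effect called 0 genes, 26 by DESeq2 and 78 with 2 RUVr factors. The run could not enter the SVZ fits, since all 8 libraries were taken as 1 run. With 0 to 97 reads for Thbs4 and 10 to 87 for Nes, the depth limits what these values can show.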
